A study of Mus musculus with 27 samples.

Results

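Txnip, 4 genes of the arrestin-domain family (Arrdc1, Arrdc2, Arrdc3 and Arrdc4) and Mlxipl, which encodes the carbohydrate response element binding protein ChREBP, were followed through the first hours of refeeding in mouse liver. The genes were taken by name, and all 6 were found among the 45706 genes of the table. Polyadenylated liver RNA of wild-type C57/BLN6 mice was sequenced with a stranded protocol in 27 libraries, 3 for each of 9 groups. Every mouse had been fasted for 16 h. In 4 groups food was then eaten for 30, 60, 120 or 240 min (refed), in 4 groups the mice met caged food for the same times, and 1 group stayed fasted. Caged food is food within an enclosure, which the animals can see and smell and cannot eat. Age and sex are not given in the sources used here. The fasted livers form 1 group with no matched times, so in a comparison with them food and clock time cannot be told apart, whereas refed and caged food livers are matched in time.

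ChREBP is a transcription factor that glucose metabolites activate in liver, where it works as a dimer with Mlx on genes of glycolysis and fat synthesis. Txnip, the thioredoxin-interacting protein, is an alpha-arrestin that binds thioredoxin and holds back glucose uptake by sending glucose transporters into the cell. Txnip and Arrdc4 are known targets of ChREBP and of its relative MondoA (Mlxip). In cultured cells glucose raises Txnip transcription. Alpha-arrestins carry motifs that recruit ubiquitin ligases of the NEDD4 family to membrane proteins.

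Promoter windows of 250 bases before to 50 bases after the annotated start, taken from RefSeq on build GRCm38.p6, are printed 5′ to 3′ on the strand of the gene for the 2 members known as ChREBP targets and for Mlxipl itself, because their E-box letters differ. Capitals mark matches on either strand to CACGTG (the palindromic E-box), to CACGAG (an E-box variant) and to GTAAACA (the forkhead motif). The windows lie at chr3:96557707-96558006 on the plus strand (Txnip), chr7:68749189-68749488 on the minus strand (Arrdc4) and chr5:135089640-135089939 on the plus strand (Mlxipl, the upstream of its 2 windows).
Txnip: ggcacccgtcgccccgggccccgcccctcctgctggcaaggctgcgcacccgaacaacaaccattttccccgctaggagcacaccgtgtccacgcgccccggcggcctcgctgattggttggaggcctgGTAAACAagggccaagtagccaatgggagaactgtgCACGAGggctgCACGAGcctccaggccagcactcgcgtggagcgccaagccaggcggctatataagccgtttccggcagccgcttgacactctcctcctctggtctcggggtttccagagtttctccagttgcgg
Arrdc4: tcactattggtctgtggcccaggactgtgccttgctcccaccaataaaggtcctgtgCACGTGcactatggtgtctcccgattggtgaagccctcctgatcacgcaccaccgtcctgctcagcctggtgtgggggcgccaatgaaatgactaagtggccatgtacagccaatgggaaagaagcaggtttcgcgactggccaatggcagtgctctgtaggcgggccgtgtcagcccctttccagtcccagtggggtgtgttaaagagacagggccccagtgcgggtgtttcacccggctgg
Mlxipl: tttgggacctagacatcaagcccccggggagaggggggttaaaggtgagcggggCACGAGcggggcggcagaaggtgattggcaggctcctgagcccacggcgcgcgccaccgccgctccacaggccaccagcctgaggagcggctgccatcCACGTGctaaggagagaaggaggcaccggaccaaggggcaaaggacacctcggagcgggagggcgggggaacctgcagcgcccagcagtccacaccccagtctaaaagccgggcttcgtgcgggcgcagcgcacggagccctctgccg
The Txnip window held 2 copies of CACGAG with 5 bases between them, starting at positions -85 and -74 from the annotated start. On either strand such a spaced pair was found in 1 of 32851 RefSeq windows of this length, which is the Txnip window (0.00304%), and its letters overlap the single CACGAG matches. The pair was searched after the Txnip window had been read, so its rarity supports nothing. The Txnip window also held GTAAACA at -121, as did 3.65% of windows. Arrdc4 held CACGTG (7.15% of windows) at -193, and the upstream Mlxipl window held CACGTG at -98 and CACGAG (6.47% of windows) at -196. The Arrdc1 window held 2 copies of CACGAG and the Arrdc2 window 1 copy. None of the 3 Arrdc3 windows held any of these motifs. A match of letters is a description and shows no binding.

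Values are normalised read counts per gene, which the authors scaled between libraries and rounded. Their totals were 40654573 to 50037562 per library, and the depth behind them was estimated at 25.6 to 52.5 M reads (median 47.0 M), with 1 read worth 0.775 to 1.69 normalised counts. In the lowest member, Arrdc1, no library was below 129. Log2 fold changes are given ± standard error from limma on log2(value + 1), fitted to all 27 libraries, and a gene is called at an adjusted p under 0.05 (Benjamini-Hochberg over 15932 genes). All 6 members passed the filter on low values. The labels do not say that the 3 libraries of a group came from separate cages or litters, although the design text calls them biological replicates. All 10 hepatocyte markers had a mean of at least 10, with summed counts of 4485130 to 7575939 per library, and none of 6 adipocyte markers did (sums of 2 to 20). Pancreas markers summed to 5967 in refed 30 min replicate 1, against 311 to 686 in the other 26 libraries. Kupffer cell and leukocyte markers were highest in caged food 60 min replicate 2 (41064 and 2410), and sinusoidal endothelium markers in caged food 30 min replicate 1 (33022). These 3 libraries stood apart from the rest of their groups. At 240 min the treatment label of refed replicate 3 names caged food and that of caged food replicate 1 names refeeding. Libraries were grouped by title. On a score of 200 genes that separated the groups at 120 min, without the members, refed 240 min replicates 1, 2 and 3 lay at 0.77, 0.57 and 0.50, and caged food 240 min replicates 1, 2 and 3 at -0.64, -0.61 and -0.59, so the titles and not the treatment labels went with the expression.

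Per length of exon, Mlxipl, Txnip and Arrdc3 were the members of high level and the other 3 arrestin-domain genes of low level. In fasted livers the mean level was 1561 ± 45.9 normalised counts per kb for Mlxipl, 1190 ± 104 for Txnip and 785 ± 293 for Arrdc3 (SD, n = 3). Arrdc4 stood at 242 ± 34.7, Arrdc2 at 149 ± 13.8 and Arrdc1 at 73.6 ± 3.39 counts per kb in the same livers. The same order of means held in caged food livers of 30 and 120 min, and at 240 min Txnip (1489 ± 226) stood beside Mlxipl (1472 ± 266) in counts per kb. In refed livers of 30 to 240 min Arrdc3 lay above Txnip per kb. At 60 min Arrdc3 was also above Mlxipl, with 3832 ± 197 against 1574 ± 248 counts per kb in refed livers and 1775 ± 234 against 1513 ± 258 counts per kb in caged food livers. Arrdc5, another gene of the family, was at 0 to 2 counts in every library and was not tested.

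**Figure D1:**
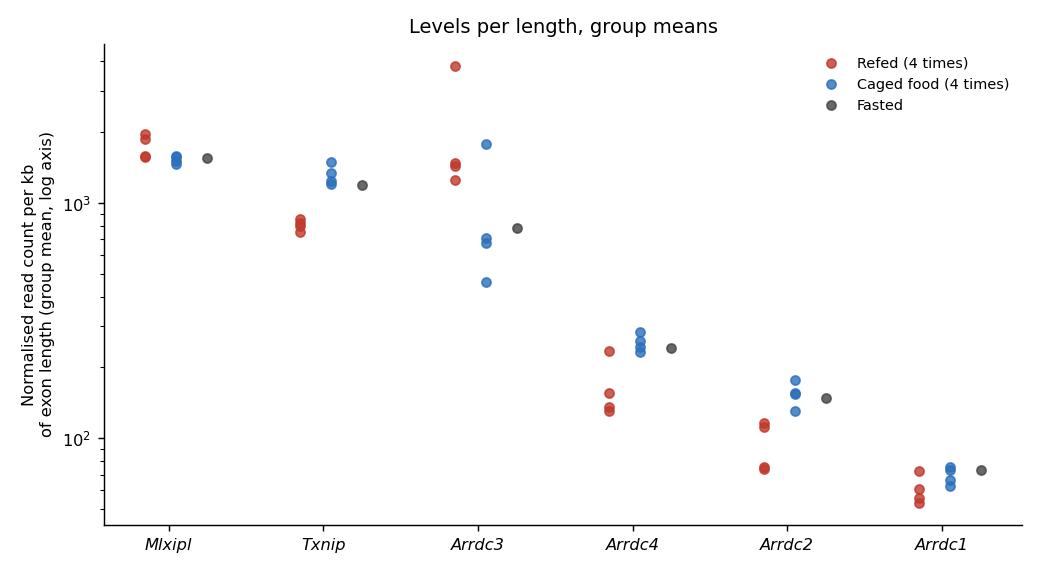
Mean normalised read count per kb of exon length (log axis) for each member, with 1 point per group, refed and caged food groups of 4 times each and the fasted group. Arrdc3 spans the widest range, up to 3832 counts per kb in refed livers of 60 min, and the Txnip means of refed livers lie below those of caged food and fasted livers.

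Txnip was lower in refed livers from 30 min and Arrdc4 from 60 min, while Arrdc3 rose at 60 min. Against fasted livers, 1 of 6 members was called at 30 min, 5 at 60 min, 2 at 120 min and 4 at 240 min, beside 1.63%, 11.0%, 14.1% and 24.3% of all genes tested at those times. Of the 12 calls, 11 were falls and 1 was the rise of Arrdc3 at 60 min. Of all genes, 0.326%, 3.75%, 6.13% and 11.4% fell and 1.31%, 7.26%, 7.95% and 12.9% rose at these times. The median log2 fold change over the members was -0.03, -0.50, -0.34 and -0.53 in time order, and that of all genes tested lay within 0.02 of 0. Set against caged food livers of the same time, 1, 4, 2 and 5 members were called at 30, 60, 120 and 240 min, beside 0.276%, 10.9%, 11.3% and 27% of all genes. All of these were lower in refed livers except Arrdc3 and Mlxipl at 240 min. Of all genes, 0.0690%, 4.18%, 5.30% and 12.4% were lower and 0.207%, 6.73%, 5.98% and 14.6% higher in refed than in caged food livers. Averaged over the times, this difference was -0.74 ± 0.09 for Arrdc2, -0.67 ± 0.08 for Arrdc4, -0.19 ± 0.06 for Arrdc1 and 0.19 ± 0.06 for Mlxipl. Each was called (limma adjusted p = 1.06e-06, 6.53e-07, 0.0208 and 0.0301), as were Txnip and Arrdc3, beside 31.3% of all genes. The Mlxipl call was lost without the libraries standing apart (0.0891) or without the filter (0.0543). Between caged food and fasted livers limma called 0 members at any of the 4 times, beside 0.0126%, 0.220%, 0.0377% and 0.00% of all genes, and 1, 1, 0 and 1 members had an unadjusted p under 0.05. The comparisons of refed and of caged food livers with fasted livers share the 3 fasted libraries. Fewer cells of a type and less RNA per cell cannot be told apart in whole liver.

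**Figure D2:**
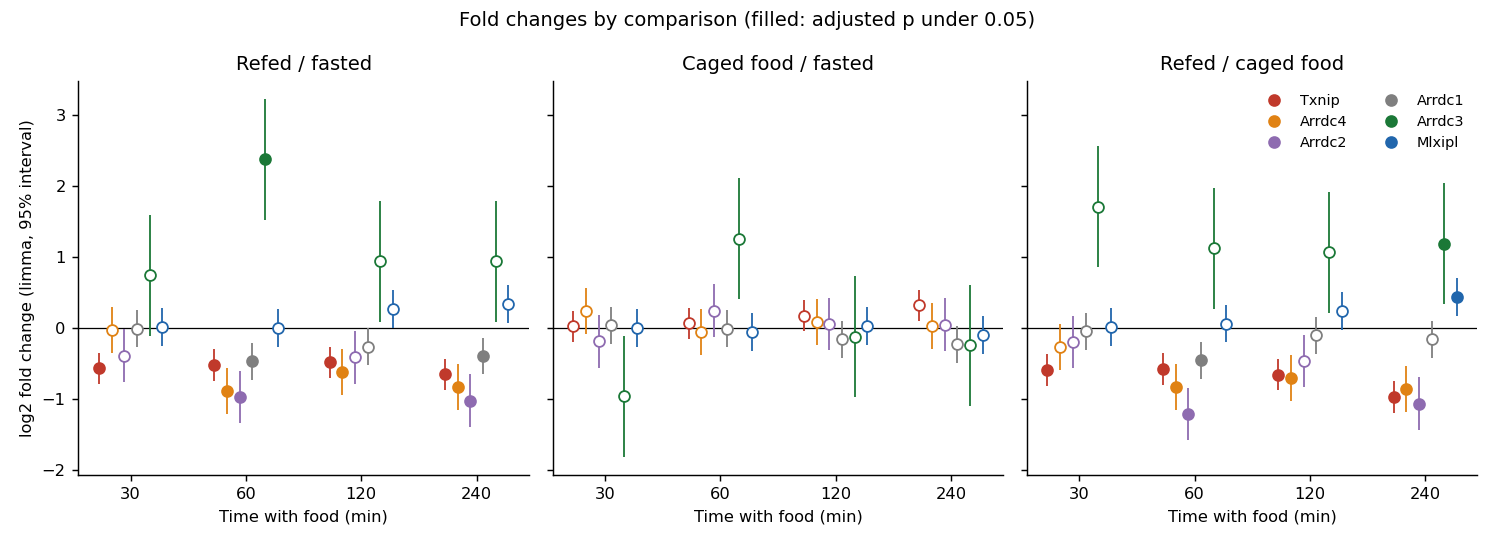
Log2 fold changes of the members by time in minutes in 3 panels (refed with fasted livers, caged food with fasted livers, refed with caged food livers), with 95% intervals of limma and filled points where the adjusted p was under 0.05. Txnip is filled at all 4 times in both comparisons of refed livers, and no point is filled for caged food against fasted livers.

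Txnip (ENSMUSG00000038393, chromosome 3, 96557957 to 96561883, plus strand of GRCm38, up to 8 exons) was lower in every refed library than in any fasted or caged food library. In refed livers it had 2584, 2574 and 2315 normalised counts at 30 min, 2431, 2541 and 2764 at 60 min, 2305, 3185 and 2509 at 120 min, and 2380, 2114 and 2568 at 240 min. In caged food livers it had 3776, 3755 and 3741 at 30 min, 3928, 3943 and 3721 at 60 min, 4112, 4043 and 4372 at 120 min, and 4876, 3857 and 5213 at 240 min. Fasted livers had 3830, 3349 and 3968. The highest refed library, 120 min replicate 2 with 3185, lay below the lowest of the fasted and caged food libraries, fasted replicate 2 with 3349. Of all genes tested, 21.9%, 27.7%, 36.0% and 43.2% had refed and fasted libraries that did not overlap at 30, 60, 120 and 240 min, and 11.7%, 21.9%, 29.7% and 41.7% had refed and caged food libraries that did not overlap. Between caged food and fasted livers Txnip did not overlap at 120 min, with 12.7%, 14.7%, 16.1% and 13.8% of all genes at the 4 times. These shares are for single pairs of groups. How many of all genes split over pooled groups, as Txnip did, was not counted, here or for the members below.

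Against fasted livers Txnip fell by 0.57 ± 0.11 at 30 min (limma adjusted p = 0.00479), 0.53 ± 0.11 at 60 min (adjusted p = 0.00185), 0.49 ± 0.11 at 120 min (adjusted p = 0.00292) and 0.66 ± 0.11 at 240 min (adjusted p = 8.42e-05) on the log2 scale. Its mean in refed livers differed from that in fasted livers by -33.0%, -30.6%, -28.2% and -36.6% at these times. The fall was present at 30 min, when 0.326% of all genes had fallen, and no later step between neighbouring refed times was called, with fold changes of 0.05, 0.04 and -0.17 (5.83%, 4.71% and 1.76% of all genes were called in these steps). Relative to caged food livers Txnip was lower in refed livers at 30 min (-0.59 ± 0.11, adjusted p = 0.0109), and the difference was -0.58 ± 0.11 at 60 min (adjusted p = 7.42e-04), -0.66 ± 0.11 at 120 min (adjusted p = 2.19e-04) and -0.97 ± 0.11 at 240 min (adjusted p = 5.51e-07). The call against caged food livers at 30 min was lost without refed replicate 2 (adjusted p = 0.0700), refed replicate 3 (0.0954) or caged food replicate 3 (0.0514), and without the libraries standing apart (0.131). At 240 min the mean was 2354 ± 228 in refed livers and 4648.7 ± 706 in caged food livers (SD, n = 3 each), a ratio of 0.506. Caged food livers lay above fasted livers at 240 min by 0.32 on the log2 scale, with an interval of 0.09 to 0.54 and an adjusted p of 0.994. A test of change with time in the gap of refed to caged food livers missed the threshold for Txnip (F = 2.93, limma adjusted p = 0.218). Averaged over the times the difference was -0.70 ± 0.05 (adjusted p = 1.25e-09), where 31.3% of all genes were called. In order of mean the 4 caged food groups came before the fasted group and the 4 refed groups. Of 8 neighbouring pairs of groups 2 did not overlap: caged food at 120 and 60 min, and fasted against refed livers of 120 min. Such pairs were counted for the members only, so no share of all genes stands beside this count or those below.

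Summed levels of 2 marker lists of other liver cells were also lower in refed livers at several times. Some other lists differed, in either direction. At 240 min sinusoidal endothelium markers (8 of 8 with a mean of at least 10) summed to 19071 to 19839 in refed, 21216 to 22411 in caged food and 21674 to 24087 in fasted livers. At 120 min, when Txnip and Arrdc4 were called, they summed to 20530 to 21586 in refed and 23958 to 27007 in caged food livers. At both times the refed sums thus lay below all fasted sums and all caged food sums of that time. Of single genes, 29.7% and 41.7% had refed and caged food libraries that did not overlap at 120 and 240 min, and 36.0% and 43.2% refed and fasted libraries. A sum does not give the direction of each marker. At 60 min the refed endothelial sums (20531 to 22944) overlapped with the fasted sums (21674 to 24087) and the caged food sums (21307 to 24704). At 30 min the refed sums (21754 to 23365) also overlapped with the fasted sums and with the caged food sums (21020 to 33022). Stellate cell markers (8 of 8) summed to 12199 to 15838 in refed, 16264 to 19004 in caged food and 16337 to 18204 in fasted livers of the 240 min comparison. At 30 min the refed stellate sums (14305 to 16220) lay below the fasted and overlapped with the caged food sums (14628 to 22006), and at 60 and 120 min they overlapped with both. Cholangiocyte sums at 120 min were higher in refed (1445 to 1843) than in caged food livers (988 to 1439). Leukocyte sums at 240 min were higher in refed (786 to 904) than in fasted livers (543 to 782). Hepatocyte sums at 120 min were lower in refed (4892047 to 5470552) than in caged food livers (5606088 to 6269410). Against fasted livers at 240 min, 25% of the endothelial and 12.5% of the stellate cell genes were called, beside 24.3% of all genes. At 30, 60 and 120 min 0% of either list was called, beside 1.63%, 11.0% and 14.1% of all genes. The part of any of these cells in the values of the members was not tested.

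The antisense gene Gm15441 (chromosome 3, 96555765 to 96566801, minus strand) spans all 3927 bases of the Txnip locus and was named after its values had been seen. It had 64, 142 and 24 counts in refed livers of 240 min and 543, 283 and 420 in fasted livers. It fell at 240 min against fasted livers (-2.71 ± 0.83, limma adjusted p = 0.0195) and was not called at the earlier times. Compared with caged food livers of 240 min it was not called (-2.02 ± 0.83, adjusted p = 0.0766). Its mean over all libraries was 272.7 counts, against 3361 for Txnip. The strand setting of the counting is not stated and overlap of exons was not measured. Reads of Txnip and of Gm15441 thus cannot be told apart with certainty.

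Arrdc4 (ENSMUSG00000042659, chromosome 7, 68736995 to 68749241, minus strand), an alpha-arrestin close to Txnip in sequence that also lowers glucose uptake, fell between 30 and 60 min of refeeding. It had 1041, 803 and 1012 normalised counts in refed livers at 30 min, 641, 490 and 458 at 60 min, 638, 593 and 655 at 120 min, and 597, 567 and 474 at 240 min. Caged food livers had 1173, 1133 and 1126 at 30 min, 1063, 953 and 803 at 60 min, 788, 1004 and 1357 at 120 min, and 976, 958 and 1034 at 240 min, and fasted livers had 888, 903 and 1138. All refed libraries of 60 to 240 min lay below all others, the highest being 655 at 120 min against a lowest of 788 in caged food livers. At 30 min refed livers overlapped with fasted livers (-0.04 ± 0.16, interval -0.36 to 0.29). The fold change against fasted livers was -0.89 ± 0.16 at 60 min (limma adjusted p = 4.47e-04), -0.63 ± 0.16 at 120 min (adjusted p = 0.00824) and -0.83 ± 0.16 at 240 min (adjusted p = 3.74e-04). The call at 120 min was lost without fasted replicate 3, the highest fasted library (adjusted p = 0.0616). Relative to caged food livers it was -0.27 ± 0.16 at 30 min (adjusted p = 0.752), -0.83 ± 0.16 at 60 min (adjusted p = 9.53e-04), -0.70 ± 0.16 at 120 min (adjusted p = 0.00418) and -0.86 ± 0.16 at 240 min (adjusted p = 2.31e-04). The step of 60 against 30 min of refeeding was called (-0.85 ± 0.16, adjusted p = 0.00179), beside 5.83% of all genes. That step was 0.05 ± 0.11 for Txnip, and the difference between the steps of both genes was not tested. In order of mean, 1 of 8 neighbouring pairs of groups did not overlap, caged food 60 min against refed 120 min.

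**Figure D3:**
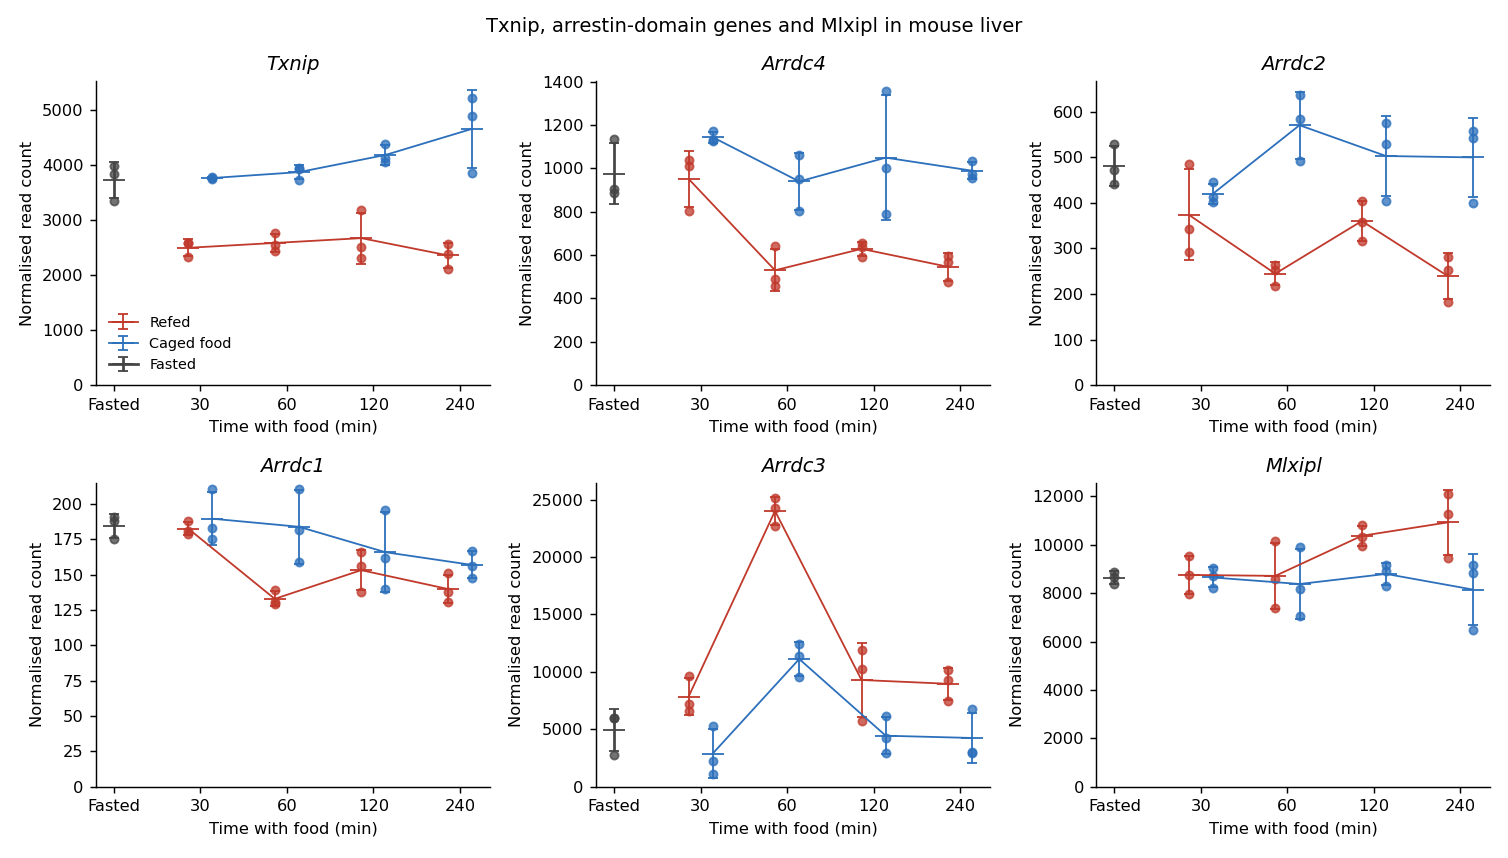
Normalised read counts of the 6 members by time in minutes, with points for single libraries, dashes for group means and bars for SD (n = 3), in refed (red), caged food (blue) and fasted (grey) livers. All 12 refed libraries of Txnip lie below 3349, the lowest fasted value, and the Arrdc3 means are highest at 60 min in refed and in caged food livers.

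Arrdc2 (ENSMUSG00000002910, chromosome 8, 70835129 to 70839720, minus strand), an alpha-arrestin whose role is less described, was low at 60 and 240 min of refeeding and nearer to its fasted level at 120 min. It had 343, 293 and 486 normalised counts in refed livers at 30 min, 217, 264 and 253 at 60 min, 317, 405 and 359 at 120 min, and 183, 281 and 252 at 240 min. Caged food livers had 402, 414 and 445 at 30 min, 637, 491 and 584 at 60 min, 575, 529 and 405 at 120 min, and 557, 543 and 400 at 240 min, and fasted livers had 472, 530 and 442. The refed libraries of 60 and 240 min lay below all libraries of other groups, while at 30 min refed and fasted libraries overlapped. Arrdc2 fell at 60 min (-0.97 ± 0.18, limma adjusted p = 6.65e-04) and 240 min (-1.03 ± 0.18, adjusted p = 1.76e-04) against fasted livers. At 30 min it was -0.39 ± 0.18 (adjusted p = 0.398) and at 120 min -0.42 ± 0.18 (adjusted p = 0.126). Compared with caged food livers the difference was -1.22 ± 0.18 at 60 min (adjusted p = 6.91e-05) and -1.07 ± 0.18 at 240 min (adjusted p = 9.44e-05). At 30 min it was -0.20 ± 0.18 and at 120 min -0.47 ± 0.18 (adjusted p = 0.884 and 0.0957). Arrdc2 was the 1 member of 6 for which the gap of refed to caged food livers was called as changing with time (F = 7.27, adjusted p = 0.0220), beside 9.97% of all genes. In refed livers no step between neighbouring times was called. The steps were -0.58, 0.55 and -0.61 in time order, each ± 0.18 (limma adjusted p = 0.056, 0.0797 and 0.0811). The return at 120 min is therefore a description of the means. The order of its group means had 1 of 8 neighbouring pairs without overlap, refed 120 min against refed 60 min.

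Arrdc1 (ENSMUSG00000026972, chromosome 2, 24925352 to 24935252, minus strand), which drives the budding of small vesicles from the plasma membrane, was called in 3 of the 12 comparisons at single times, each a fall. It had 188, 179 and 181 normalised counts in refed livers at 30 min, 131, 129 and 139 at 60 min, 156, 138 and 166 at 120 min, and 131, 151 and 138 at 240 min, against 191, 188 and 175 in fasted livers. Caged food livers ranged over 175 to 211 at 30 min, 159 to 211 at 60 min, 140 to 196 at 120 min and 148 to 167 at 240 min. The refed libraries of 60, 120 and 240 min lay below all fasted libraries, and those of 60 min also below the caged food libraries of that time. Arrdc1 fell against fasted livers at 60 min (-0.47 ± 0.13, limma adjusted p = 0.0156) and 240 min (-0.40 ± 0.13, adjusted p = 0.0228), and against caged food livers at 60 min (-0.46 ± 0.13, adjusted p = 0.0197). Each of these calls was lost when single libraries were left out. At 60 min against fasted livers, leaving out fasted replicate 1 gave an adjusted p of 0.0559, fasted replicate 2 of 0.0575 and refed replicate 2 of 0.0512. At 240 min, leaving out fasted replicate 1 gave 0.0738, fasted replicate 2 0.0665, refed replicate 1 0.0967 and refed replicate 3 0.0565. For the comparison with caged food livers at 60 min, leaving out refed replicate 1 gave 0.0594, refed replicate 2 0.0581 and caged food replicate 2 0.108. At 240 min all 3 caged food libraries also lay below the fasted libraries, with a fold change of -0.23 ± 0.13 (interval -0.49 to 0.03) that was not called. All 8 neighbouring pairs in the order of its group means overlapped.

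Arrdc3 (ENSMUSG00000074794, chromosome 13, 80883384 to 80896042, plus strand), an alpha-arrestin known to act on beta-adrenergic receptors and on the insulin receptor, had the widest range of the members, 22.5-fold between its lowest and highest library. It had 7204, 6638 and 9660 normalised counts in refed livers at 30 min, 24253, 22675 and 25104 at 60 min, 5709, 11925 and 10257 at 120 min, and 10176, 9282 and 7443 at 240 min. Caged food livers had 1117, 5297 and 2266 at 30 min, 12441, 9540 and 11385 at 60 min, 4221, 6155 and 2961 at 120 min, and 3032, 2910 and 6804 at 240 min, and fasted livers had 5986, 2801 and 5974. The 3 refed libraries of 60 min lay above every other library, and the caged food libraries of 60 min lay above every other caged food library and every fasted one. Arrdc3 rose at 60 min of refeeding against fasted livers (2.37 ± 0.41, limma adjusted p = 3.83e-04), a ratio of means of 4.88. The fold changes against fasted livers at 30, 120 and 240 min were 0.74, 0.93 and 0.94, each ± 0.41 and not called (adjusted p = 0.539, 0.141 and 0.105). In other fits, quality weights per library gave a call at 120 min (0.97 ± 0.33, limma adjusted p = 0.0287). A fit to only the groups compared gave one at 240 min (0.94 ± 0.26, adjusted p = 0.0233). In caged food livers of 60 min the mean was 11122 ± 1468, against 4920.3 ± 1835 in fasted livers (SD, n = 3 each), and the fold change of 1.25 ± 0.41 was not called (adjusted p = 0.254).

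Between times, Arrdc3 rose at 60 against 30 min in refed livers (1.63 ± 0.41, limma adjusted p = 0.0188) and in caged food livers (2.22 ± 0.41, adjusted p = 0.0210), where 5.83% and 0.169% of all genes were called. It fell at 120 against 60 min in refed livers (-1.44 ± 0.41, adjusted p = 0.0464, with 4.71% of all genes called), and in caged food livers that step was -1.38 ± 0.41 (adjusted p = 0.101, with 1.05% called). The rise in caged food livers was lost without caged food 30 min replicate 1, the lowest library (1.67, adjusted p = 0.109), caged food 30 min replicate 3 (0.0788), caged food 60 min replicate 1 (0.0900) or 60 min replicate 3 (0.0609). It was also lost without the libraries standing apart (1.78, limma adjusted p = 0.180), with quality weights (1.60, 0.135) and with only the groups compared (2.22, 0.435). In refed livers the rise was lost without 30 min replicate 1 (0.0819) or 2 (0.0619) or 60 min replicate 1 (0.0547) or 3 (0.0564). The later fall was lost without any 1 of its 6 libraries (adjusted p = 0.0509 to 0.203). The log2 difference of refed to caged food livers was 1.7, 1.12, 1.06 and 1.18 for Arrdc3 at 30, 60, 120 and 240 min, each ± 0.41, and that at 240 min was called (adjusted p = 0.104, 0.0873, 0.104 and 0.0359). That call was lost without refed replicate 1 (0.114), refed replicate 2 (0.0856), caged food replicate 1 (0.138) or caged food replicate 2 (0.139). Without caged food 30 min replicate 2, the highest library there, the difference at 30 min was called (2.28, adjusted p = 0.00862). A fit to only the groups compared called the difference at 60 min (1.12 ± 0.12, limma adjusted p = 0.00350). Quality weights called that at 120 min (1.08 ± 0.35, adjusted p = 0.0272), and without the filter that at 240 min was lost (adjusted p = 0.0619). The mean difference over the times was 1.27 ± 0.21 (adjusted p = 4.78e-05), and no change of it over time was detected (F = 0.511, adjusted p = 0.828). In order of mean, refed and caged food livers of 60 min came first, and 2 of 8 neighbouring pairs did not overlap, refed against caged food at 60 min and refed 30 min against fasted. The transcript 1700023H06Rik on the opposite strand, named after its values had been seen, spans 1301 bases within the Arrdc3 locus and had a mean of 40.2 counts. It rose at 60 min of refeeding against fasted livers (2.34 ± 0.62, adjusted p = 0.0149) and was not called against caged food livers of that time (0.50 ± 0.62, adjusted p = 0.690). It rose against caged food livers at 240 min (1.84 ± 0.62, adjusted p = 0.0302), where the libraries overlapped. In caged food livers it rose at 60 against 30 min (2.97 ± 0.62, adjusted p = 0.0489) and fell at 120 against 60 min (-2.64 ± 0.62, adjusted p = 0.0382). Overlap of exons was not measured and the strand setting is not stated, so its reads cannot be told apart from those of Arrdc3 with certainty.

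Mlxipl (ENSMUSG00000005373, chromosome 5, 135089890 to 135138382, plus strand, up to 17 exons) was called in 1 of the 12 comparisons at single times. It had 8753, 7956 and 9552 normalised counts in refed livers at 30 min, 7406, 10140 and 8597 at 60 min, 9968, 10814 and 10328 at 120 min, and 12080, 9450 and 11252 at 240 min, against 8670, 8884 and 8378 in fasted livers. Caged food livers had 8692, 9037 and 8215 at 30 min, 8182, 7057 and 9897 at 60 min, 8292, 8929 and 9165 at 120 min, and 8825, 9166 and 6463 at 240 min. The refed libraries of 120 and 240 min lay above all fasted libraries and above the caged food libraries of the same time. Against fasted livers the fold change was 0.01 and 0.00 at 30 and 60 min, with intervals of -0.25 to 0.28 and -0.27 to 0.27. It was 0.26 ± 0.13 at 120 min (limma adjusted p = 0.191) and 0.33 ± 0.13 at 240 min (adjusted p = 0.0646), neither called. Next to caged food livers of 240 min Mlxipl was higher in refed livers (0.43 ± 0.13, adjusted p = 0.0146), and the call was lost without refed replicate 1 (0.0866) or caged food replicate 3, the lowest library (0.27, adjusted p = 0.129). In order of mean, 1 of 8 neighbouring pairs did not overlap, refed 120 min against caged food 120 min. Its windows mark 2 starts, and the values per gene do not separate the transcripts that begin at them.

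Without the libraries in doubt, each call of Txnip, Arrdc4 and Arrdc2 in the 12 comparisons was kept except that of Txnip against caged food livers at 30 min. Without the 2 libraries of conflicting labels, Txnip at 240 min had -0.72 ± 0.12 against fasted livers (limma adjusted p = 1.90e-04) and -1.0 ± 0.13 against caged food livers (1.67e-05). Arrdc4 had -0.74 ± 0.18 (0.00487) and -0.77 ± 0.19 (0.00719) there, and Arrdc2 -1.08 ± 0.20 (6.55e-04) and -1.04 ± 0.22 (0.00231). Mlxipl stayed higher than in caged food livers (0.47 ± 0.16, adjusted p = 0.0426), while the calls of Arrdc1 against fasted (0.0654) and Arrdc3 against caged food livers (0.136) at 240 min were lost. Without the 3 libraries standing apart, Txnip had -0.60 ± 0.13 at 30 min (adjusted p = 0.0177) and -0.53 ± 0.11 at 60 min (0.00350) against fasted livers. At 60 min the same fit gave -0.89 ± 0.16 for Arrdc4 (9.28e-04), -0.97 ± 0.18 for Arrdc2 (0.00111), -0.47 ± 0.12 for Arrdc1 (0.0155) and 2.37 ± 0.36 for Arrdc3 (1.55e-04) against fasted livers. In the comparison with caged food livers at 60 min, Txnip (-0.57, adjusted p = 0.00608), Arrdc4 (-0.82, 0.00646) and Arrdc2 (-1.32, 2.63e-04) were called and Arrdc1 was not (-0.35, 0.120).

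In the Mondo and Mlx network, Mlx, the partner of ChREBP, rose from 60 min of refeeding. Mxd1 rose at 30 min, and Mnt and Mxi1 were each lower at some later times. Of 10 genes of the Mondo and Mlx network tested (without Mlxipl), 1 rose and 0 fell at 30 min of refeeding against fasted livers, 2 rose and 1 fell at 60 min, 2 rose and 1 fell at 120 min, and 2 rose and 2 fell at 240 min. The share of the list called was 10%, 30%, 30% and 40% in time order, beside 1.63%, 11.0%, 14.1% and 24.3% of all genes tested. The list medians were 0.13, 0.00, 0.02 and -0.05, beside medians of all genes within 0.02 of 0. Mlx, the obligate partner, had 1790.7 ± 113 counts in refed livers of 60 min, 1932.3 ± 247 at 120 min and 2116 ± 216 at 240 min, against 1460.3 ± 89.5 in fasted livers (SD, n = 3). It rose by 0.29 ± 0.09 at 60 min (limma adjusted p = 0.0315), 0.40 ± 0.09 at 120 min (adjusted p = 0.00308) and 0.53 ± 0.09 at 240 min (adjusted p = 1.03e-04). Mlxip, which encodes MondoA, was not called against fasted livers (0.19, 0.04, -0.21 and -0.34, each ± 0.14), and was lower in refed than in caged food livers at 120 min (-0.54 ± 0.14, adjusted p = 0.0108). Max, the partner of Myc, rose by 0.49, 0.43 and 0.25 at 60, 120 and 240 min. Mxi1, a repressor of the family, fell by 0.53 at 120 min and 0.67 at 240 min. Mnt, a repressor that pairs with Max and Mlx, fell by 1.0 at 60 min and 0.56 at 240 min, and Mxd1 rose by 0.54 at 30 min.

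Genes known as ChREBP targets moved in both directions. Of 31 tested, 0 were called at 30 min, 2 rose and 1 fell at 60 min, 3 rose and 1 fell at 120 min, and 7 rose and 5 fell at 240 min, with list medians of 0.03, -0.02, -0.11 and 0.09. The share called was 0%, 9.68%, 12.9% and 38.7%, beside 1.63%, 11.0%, 14.1% and 24.3% of all genes, whose calls were also most numerous at 240 min. Fasn, the fatty acid synthase, had 4680.7 ± 161 counts in refed livers of 60 min, 5571.7 ± 391 at 120 min and 8431.3 ± 253 at 240 min, against 3332 ± 361 in fasted livers. It rose by 0.50, 0.74 and 1.34 ± 0.12 at these times (limma adjusted p = 0.00895, 1.84e-04 and 5.63e-08). Pklr, the liver pyruvate kinase and a classical ChREBP target, was not called before 240 min (0.03, 0.21 and 0.40 at 30, 60 and 120 min) and rose by 0.78 ± 0.17 there (adjusted p = 0.00120). Elovl6 and Acaca, enzymes of fat synthesis, rose by 0.92 and 0.50 at 240 min. Ppp1r3b, a glycogen-targeting subunit of protein phosphatase, rose by 1.92, 1.72 and 1.86 at 60, 120 and 240 min, while its relative Ppp1r3g fell by 3.79 at 240 min. G6pc, the glucose-6-phosphatase catalytic subunit, is on the list for its response to glucose, and insulin is known to repress it. It fell by 2.96, 3.43 and 3.19 ± 0.28 at 60, 120 and 240 min.

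Of 11 genes of glucose sensing and uptake, 0, 2, 3 and 3 rose at 30, 60, 120 and 240 min and 0, 0, 0 and 1 fell, with list medians of 0.07, -0.00, 0.26 and 0.12. The share called was 0%, 18.2%, 27.3% and 36.4%, beside 1.63%, 11.0%, 14.1% and 24.3% of all genes. Of these 11, 1 had an unadjusted p under 0.05 at 30 min. Pfkfb3, which makes an activator of glycolysis, had 1447 ± 385 counts in refed livers of 60 min, 1119.3 ± 228 at 120 min and 1095 ± 130 at 240 min, against 493.3 ± 100 in fasted livers (SD, n = 3). It rose by 1.54, 1.18 and 1.16 ± 0.24 at these times (limma adjusted p = 1.45e-04, 0.00179 and 0.00114). Tigar, which removes that activator, rose by 0.40, 0.58 and 0.62. Hk2, a hexokinase gene, rose by 0.78 at 120 min and 0.73 at 240 min, and Pfkfb2, a relative of Pfkfb3, fell by 0.45 at 240 min.

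**Figure D4:**
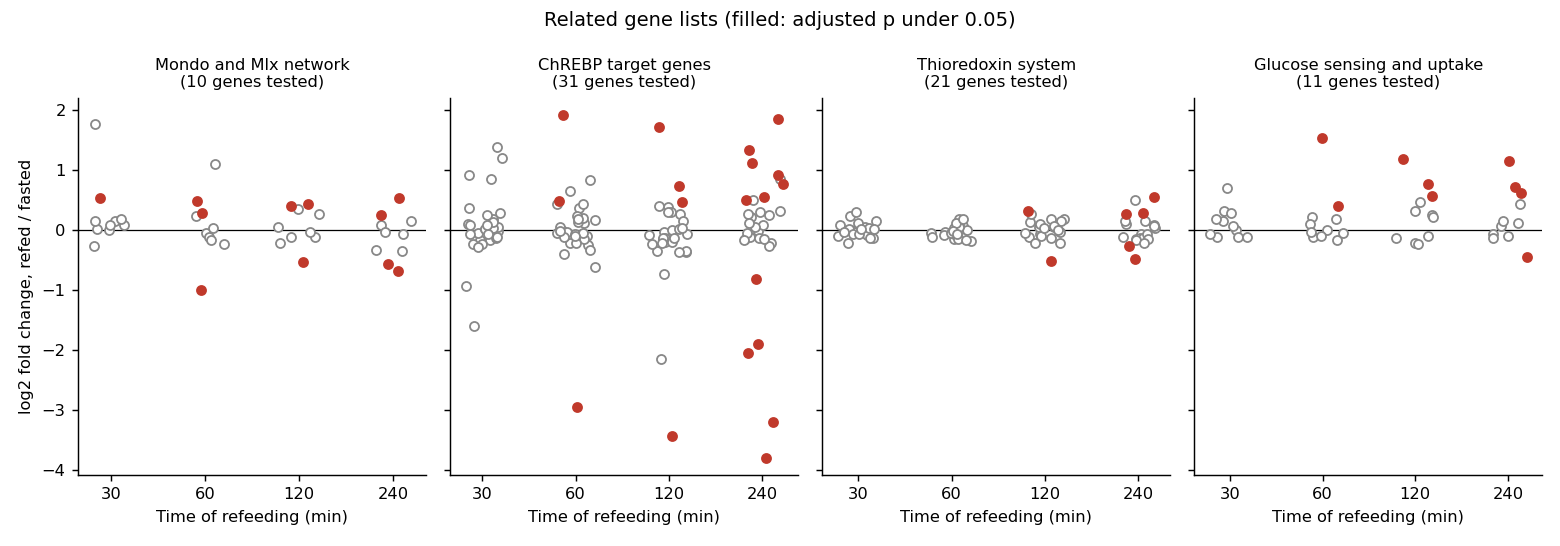
Log2 fold changes of refed against fasted livers for the genes of 4 related lists by time in minutes, 1 point per gene, filled where the adjusted p was under 0.05. Filled points of the ChREBP target list lie on both sides of 0 at 240 min (7 above and 5 below), and 3 points of the glucose list are filled above 0 at 120 and at 240 min.

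Lists of partners of the alpha-arrestins were called at shares at or below those of all genes at 60, 120 and 240 min. Of 21 genes of the thioredoxin system, 0 were called at 30 and 60 min, 1 rose and 1 fell at 120 min, and 3 rose and 2 fell at 240 min, with list medians of 0.01, -0.03, 0.04 and -0.05. These are 9.52% and 23.8% of the list at 120 and 240 min, beside 14.1% and 24.3% of all genes. Txn1, the thioredoxin that Txnip binds, was not called in any comparison of refed livers with fasted livers, with fold changes of 0.04, 0.06, 0.10 and 0.07, each ± 0.10. Txnrd1, which reduces thioredoxin, rose by 0.32 ± 0.08 at 120 min (limma adjusted p = 0.00901) and 0.56 ± 0.08 at 240 min (adjusted p = 1.89e-05), while Txnrd3 fell by 0.52 and 0.48. Of 10 genes of the NEDD4 family and its adaptors tested, Smurf1 fell at 120 min (-0.51 ± 0.10, adjusted p = 8.30e-04) and Smurf2 rose at 240 min (0.24 ± 0.08, adjusted p = 0.0301), which is 10% of the list at each of these times, and the list medians were 0.07, -0.04, -0.11 and 0.02. Among 12 known cargo proteins of alpha-arrestins, the glucose transporter gene Slc2a1 fell at 60 min (-0.65 ± 0.11, adjusted p = 3.23e-04). The iron transporter gene Slc11a2 rose by 0.36 at 120 min and 0.66 at 240 min, and the insulin receptor gene Insr fell by 0.25 at 240 min (adjusted p = 0.0288). The medians of that list were 0.02, -0.06, -0.04 and -0.22, and 8.33%, 8.33% and 16.7% of it were called at 60, 120 and 240 min. None of 4 other arrestin-fold genes tested was called at any time by limma (0, 0, 0 and 0 also without adjustment), with list medians between -0.05 and 0.03, and Arrb1, a beta-arrestin gene, had fold changes of -0.07, -0.07, 0.04 and -0.12. Ddit4, a stress-responsive inhibitor of mTOR signalling, was not called against fasted livers (0.00, -0.65, -0.31 and -0.26, each ± 0.36) and was lower in refed than in caged food livers at 60 min (-1.42 ± 0.36, adjusted p = 0.0110).

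Genes with the pattern most like that of each member were ranked by Pearson's r of log2(value + 1) over the 27 libraries, among tested genes with a mean of at least 100. The libraries share their groups, so r mostly follows the group means and is given as a description. For Txnip the closest were Rcl1 (r = 0.902), Arl4d (0.874), Maf1 (0.863), Tmtc1 (0.861) and Polg2 (0.852). Igfbp1, an insulin-repressed binding protein of growth factors, was closest to Arrdc4 (0.925), followed by Rnd1 (0.912) and Ocln (0.901). For Arrdc2 they were Klhl21 (0.899), Mast3 (0.891) and Spata2l (0.878), and for Arrdc3 Zfand2a (0.847), Ints6 (0.824) and Alkbh1 (0.815). Arrdc1 was closest to Cblc (0.810), Pald1 (0.805) and Crot (0.797), and Mlxipl to Lrrc3 (0.840), Rin3 (0.827) and Fam149a (0.80). Among the members themselves r was 0.72 for Txnip and Arrdc2, 0.67 for Txnip and Arrdc4 and -0.50 for Txnip and Arrdc3. After the group means were taken out, the same pairs had r of -0.24, -0.02 and 0.32.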

How the data were processed

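The deposited table holds, as a score for each gene and library, counts of reads that the authors scaled between libraries, by a method not given in the sources used here, and rounded to whole numbers. The aligner STAR 2.4.0a, the read counter featureCounts 1.4.5-p1 of Subread and build mm10 (GRCm38) are named, without order, per the submitters' processing notes. The strand setting is not given. The low values of a scaled and rounded count are spaced by what 1 read is worth, which gave the depth per library (off by at most 9.14% on simulated tables). No count test was run. Coordinates, exon lengths and overlaps of gene spans are from GENCODE M21 (98.8% of identifiers matched).

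The 15932 genes reaching 10 in 3 or more libraries were taken as log2(value + 1) and fitted to 9 group means with limma 3.58.1 (trend) in R 4.3.3, checked on simulated data. Contrasts were refed minus fasted, caged food minus fasted and refed minus caged food at each time, steps between neighbouring times, means over times, and an F test of whether refed minus caged food varied over time. The Benjamini-Hochberg adjustment ran over all genes of a contrast. Intervals are 95% from limma for a difference of group means. Their width comes from 1 estimate per gene of the spread between libraries, shared by all 9 groups. The members and the lists were chosen with earlier results of these data known. Of each list, the counts called and at most 6 called genes of lowest p per time are named, besides Mlx, Mlxip, Arrdc5, Txn1, Pklr, G6pc, Ddit4 and Arrb1, and the 5 (Txnip) or 3 genes of most similar pattern, without predicted and sex-linked genes. Marker genes of liver and other cell types were summed per library. Other settings tried were a replicate block, quality weights per library, quantile normalization, a fit to only the groups compared, a pseudocount of 5, and no filter. Each library was left out in turn, as were the 3 standing apart, and the 2 whose labels conflict were left out or moved to the group of their treatment label. The design text names 60 samples, of which 27 were analysed here. A gene of the glucose list is not reported here.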

Additional observations from a re-analysis of the deposited data

Results flagged for a closer look

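Between neighbouring times, 5 steps of the members were past the threshold of limma, and each is a difference between times within 1 kind of feeding. In refed livers at 60 against 30 min, Arrdc1 had a log2 fold change of -0.46 (adjusted p = 0.0315), Arrdc4 of -0.85 (adjusted p = 0.00179) and Arrdc3 of 1.63 (adjusted p = 0.0188). The Arrdc1 step was lost without any 1 of its 6 libraries (adjusted p = 0.0534 to 0.127). In refed livers at 120 against 60 min Arrdc3 had -1.44 (adjusted p = 0.0464), and in caged food livers at 60 against 30 min 2.22 (adjusted p = 0.0210). Each Arrdc3 step was lost in some fits without 1 library. The step in caged food livers was also lost without the libraries standing apart (1.78, limma adjusted p = 0.180). For Arrdc2 the gap of refed to caged food livers changed with time (F = 7.27, adjusted p = 0.0220). With 3 libraries per group, no single library was tested for standing far from the others of its group.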

How the results depend on the processing

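Over the 12 comparisons of the 6 members, 476 of the values under other settings kept their side of the threshold and their direction where called, 16 lost a call and 12 gained one. With 1 library left out, 409 kept, 20 lost and 3 gained. None reversed. At 120 min of refeeding against fasted livers 2 members were called, 5 with library quality weights, 4 with only the groups compared, and 1 to 2 with 1 library left out (1 without fasted replicate 3). Against caged food livers 1 was called at 30 min, 0 without the libraries standing apart and 0 to 2 with 1 library left out (0 without refed replicate 2, refed replicate 3 or caged food replicate 3, and 2 without caged food replicate 2). At 120 min 2 were called, and 4 with quality weights. At 240 min 5 were called, and 3 without refed replicate 1. Grouped by the treatment label, 0 were called at 240 min against fasted or caged food livers (4 and 5 by title), and 0 for the change of the difference over time (1 by title, Arrdc2, F = 2.62 and adjusted p = 0.552). Without the 2 libraries of conflicting labels, Txnip, Arrdc4 and Arrdc2 kept their calls at 240 min in both comparisons, and Arrdc1 against fasted (adjusted p = 0.0654) and Arrdc3 against caged food livers (0.136) lost theirs. Mlxipl at 240 min against fasted livers was called with quantile normalization (adjusted p = 0.0234), quality weights (0.0120) and only the groups compared (0.0221). The cause of these changes was not tested. With the replicate number as a block, the counts of members called were 1, 5, 2 and 4 against fasted and 1, 4, 2 and 5 against caged food livers, and no call of the 12 comparisons changed. The fall of Arrdc3 at 120 against 60 min of refeeding was lost with the block (adjusted p = 0.0544). Libraries share only a number: over 108 pairs with the same number the mean r of deviations from group means was -0.00944, and 8 of 27 libraries were closest to one of their own number.

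With 3 libraries per group and a spread shared by all groups, the standard error of a single comparison was 0.11 for Txnip and 0.41 for Arrdc3 on the log2 scale. Changes of Arrdc3 of the size seen in Txnip were thus unlikely to be called in a single comparison. For refed against caged food livers averaged over the times, the standard error was 0.05 for Txnip and 0.21 for Arrdc3. The fasted group has no matched times. Levels per gene do not separate transcripts or strands.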
